A study of Mus musculus with 14 samples.

Results

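The 10 genes described here encode transcription factors that direct blood development in the mouse, namely Tal1, Lyl1, Lmo2, Spi1, Runx1, Runx3, Ikzf1, Ikzf3, Gfi1 and Gfi1b. They were chosen by name, as regulators of the blood lineage that fibroblasts keep silent or share, from the 21938 protein-coding genes of the annotation. H3K27me3 sites were taken from the combined deposited list of 153983 sites when they overlapped a gene or the 50 kb on either side of it, hereafter the locus, and 287 sites did so.

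The cells were iMEF, immortalised mouse embryo fibroblasts whose endogenous floxed Ash2l had been deleted with Cre-ER and which lived on a lentiviral FKBP-HA2-ASH2L fusion carrying human ASH2L. The study worked mainly with a single clone of these cells. All groups, controls included, shared the deletion and the fusion, and they differed in treatment with dTAG, a compound that sends the fusion to degradation. There were 12 H3K27me3 libraries in 6 groups of 2 replicates, 1 group of control cells and the others treated with dTAG for 30 min or for 2, 4, 8 or 16 h. Input chromatin gave 2 more libraries, from control cells and from cells after 16 h. The list gives positions for all samples together. It holds no value for any library, so there are no replicates to compare, no errors can be given and the read depth behind a site is unknown. Differences between control and treated cells were not analysed here, and no expression values were used.

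H3K27me3 is set by Polycomb repressive complex 2 and is known from developmental regulators that a cell lineage does not use, where it often spreads over whole genes. Tal1 and Lyl1 are related basic helix-loop-helix proteins that act in a complex with the bridging protein Lmo2 in blood stem cells and red cell precursors. Spi1 (PU.1) is an ETS factor of macrophages, granulocytes and B cells, and Runx1 and Runx3 are RUNX factors read from a distal and a proximal promoter each. Ikzf1 (Ikaros) and Ikzf3 (Aiolos) are zinc-finger factors of lymphocytes, while Gfi1 and its relative Gfi1b are zinc-finger repressors of the myeloid and of the red cell and platelet lines.

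The genes fell into several patterns, and the sequences around their starts are shown first because CpG-dense and CpG-poor promoters occurred both inside and outside sites. Promoters were taken from RefSeq (GRCm38.p6) as 250 bases before to 50 after a start. The table held 12 promoters for 7 of the genes. Entries for Spi1, Ikzf3 and Lmo2 were missing. Of the 12, 7 lay wholly inside a site and 5 had no base in a site. The following 7 are printed 5′ to 3′ on the strand of the gene, with each CpG in capitals. They are Ikzf1 (chr11:11685675-11685974, plus strand), the proximal promoter of Runx3 (chr4:135152295-135152594, plus strand), the proximal promoter of Runx1 (chr16:92697280-92697579, minus strand), the first promoter of Tal1 (chr4:115056176-115056475, plus strand), Gfi1b (chr2:28621933-28622232, minus strand), Lyl1 (chr8:84701207-84701506, plus strand) and the distal promoter of Runx1 (chr16:92826025-92826324, minus strand).
Ikzf1: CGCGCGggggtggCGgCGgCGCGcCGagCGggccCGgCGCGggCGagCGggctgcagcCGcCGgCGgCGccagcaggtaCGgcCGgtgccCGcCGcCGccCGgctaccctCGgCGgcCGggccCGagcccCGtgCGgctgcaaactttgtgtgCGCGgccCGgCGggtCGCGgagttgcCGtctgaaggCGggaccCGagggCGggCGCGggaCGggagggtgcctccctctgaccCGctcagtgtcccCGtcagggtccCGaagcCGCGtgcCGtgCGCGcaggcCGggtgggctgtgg
Runx3 proximal: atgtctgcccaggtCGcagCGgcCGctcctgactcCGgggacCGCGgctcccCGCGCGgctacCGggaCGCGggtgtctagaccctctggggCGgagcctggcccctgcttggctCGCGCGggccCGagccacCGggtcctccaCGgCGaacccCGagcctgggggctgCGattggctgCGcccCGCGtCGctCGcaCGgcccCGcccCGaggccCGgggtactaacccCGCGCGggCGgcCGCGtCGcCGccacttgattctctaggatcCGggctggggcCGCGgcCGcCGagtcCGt
Runx1 proximal: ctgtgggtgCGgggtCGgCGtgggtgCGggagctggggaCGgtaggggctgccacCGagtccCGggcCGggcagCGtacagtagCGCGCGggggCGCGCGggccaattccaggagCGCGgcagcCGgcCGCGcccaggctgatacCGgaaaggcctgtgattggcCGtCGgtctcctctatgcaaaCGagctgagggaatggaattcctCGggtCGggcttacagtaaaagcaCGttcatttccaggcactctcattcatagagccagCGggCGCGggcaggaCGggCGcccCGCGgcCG
Tal1: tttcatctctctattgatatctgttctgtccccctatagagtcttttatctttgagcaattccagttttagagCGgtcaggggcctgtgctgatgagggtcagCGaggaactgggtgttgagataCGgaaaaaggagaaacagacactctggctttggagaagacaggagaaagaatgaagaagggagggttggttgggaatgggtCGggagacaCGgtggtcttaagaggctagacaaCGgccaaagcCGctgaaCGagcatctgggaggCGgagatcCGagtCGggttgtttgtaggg
Gfi1b: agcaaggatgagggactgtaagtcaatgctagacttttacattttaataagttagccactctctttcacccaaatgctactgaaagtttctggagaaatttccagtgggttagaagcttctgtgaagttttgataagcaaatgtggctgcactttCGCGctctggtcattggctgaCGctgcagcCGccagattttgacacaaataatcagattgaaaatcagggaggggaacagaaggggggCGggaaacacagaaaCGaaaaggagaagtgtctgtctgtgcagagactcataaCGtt
Lyl1: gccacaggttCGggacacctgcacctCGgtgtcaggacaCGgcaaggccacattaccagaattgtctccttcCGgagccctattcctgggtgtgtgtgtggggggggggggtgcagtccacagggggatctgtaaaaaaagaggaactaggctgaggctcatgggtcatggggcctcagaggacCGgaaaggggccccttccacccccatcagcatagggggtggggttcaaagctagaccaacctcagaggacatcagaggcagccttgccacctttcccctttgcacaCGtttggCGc
Runx1 distal: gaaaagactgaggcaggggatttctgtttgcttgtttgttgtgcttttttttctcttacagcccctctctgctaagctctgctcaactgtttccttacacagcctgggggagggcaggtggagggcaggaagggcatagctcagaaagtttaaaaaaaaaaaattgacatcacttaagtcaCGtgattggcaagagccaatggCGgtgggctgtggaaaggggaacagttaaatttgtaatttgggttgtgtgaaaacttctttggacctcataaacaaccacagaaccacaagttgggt

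The promoter of Ikzf1 held 52 CpGs and lay inside a site of 4940 bp. The proximal promoters of Runx3 and Runx1 held 45 and 35 CpGs, and neither had a base in a site. The nearest site was 1782 bp from the Runx3 start and 9211 bp from the Runx1 start. The promoter of Gfi1b held 7 CpGs and lay inside a site of 15546 bp, whereas that of Lyl1 also held 7 and was 20782 bp from the nearest site. The first Tal1 promoter held 11 CpGs, inside a site of 22695 bp. At the CpG-poor end, the distal Runx1 promoter held 2, with no site closer than 4135 bp. The second Ikzf1 promoter, not printed, also held 2 and lay inside a site of 1120 bp. The median over all 32851 promoters of the table was 7 CpGs.

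A site overlapped the window of 1 kb either side of a start site in 8 of the 10 genes, against 31.5% of all protein-coding genes. Runx1 and Lyl1 had none. Sites of at least 2 kb were found there in 7 genes, against 16.1% of all genes, and sites of at least 10 kb in 5, namely Tal1, Lmo2, Ikzf3, Gfi1 and Gfi1b, against 3.82%. A gene with more annotated starts has more windows in which a site can fall. The members had a median of 4 start sites and all genes a median of 3. Counting sites in the body gave 9 of 10 genes, all but Lyl1, against 46.7% of all genes, and at least 50% of the body was covered in 6, against 9.35%. A longer body has more room for a site, and the median body length was 28630 bp over the members and 17420 bp over all genes. The median covered share of the body was 67.7% over the members, with a range from 0 to 100%. Over all genes the median was 0 and the upper quartile 5.40%. For the loci the medians were 35.7% and 3.81%. Since the list pools control and treated cells, a site says that the mark was called in some sample, and a base without a site may still carry the mark below the calling threshold, which is not given in the sources used here.

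**Figure D1:**
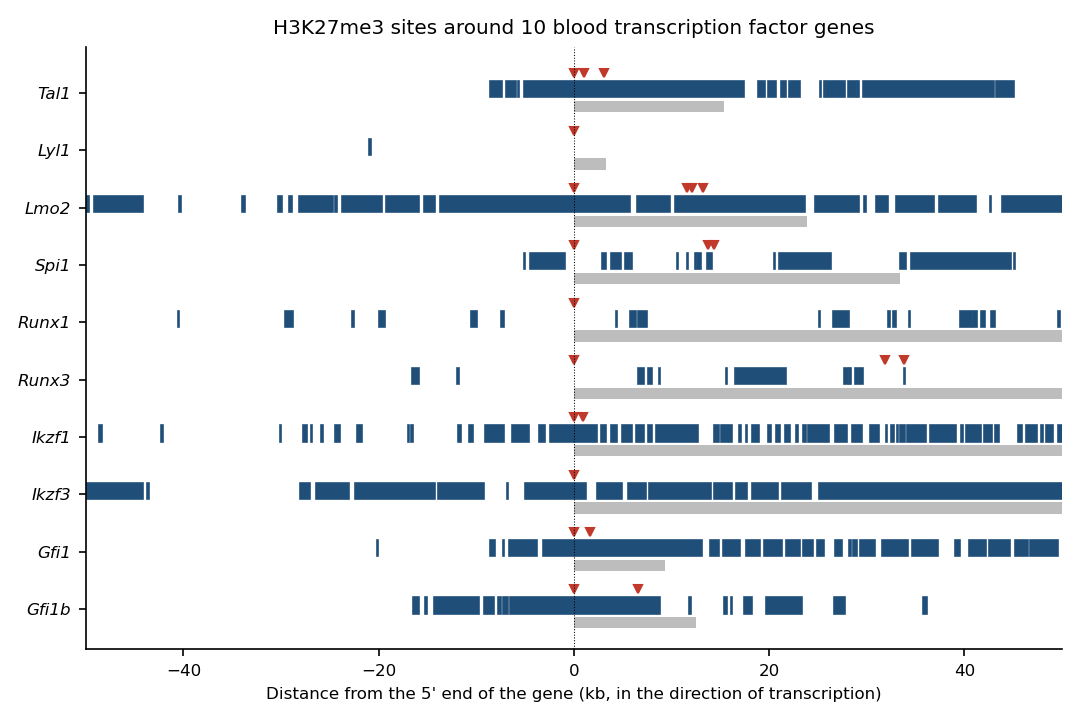
H3K27me3 sites (dark bars) from 50 kb before to 50 kb after the 5′ end of each gene (horizontal axis, kb in the direction of transcription), with the gene body as a grey bar and groups of start sites as red triangles. Tal1, Lmo2, Gfi1 and Gfi1b lie in wide sites around the 5′ end. Ikzf3 has a site of 6327 bp there and its widest site inside the gene, and Ikzf1 lies in a run of narrower ones. Runx1 has sites away from its starts, Runx3 likewise except for 1 of 200 bp at an internal start, and Lyl1 has 1 site of 353 bp.

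Among the genes of the stem cell complex, Tal1 and Lmo2 lay in wide sites and Lyl1 did not. Tal1 (chr4:115056426-115071755, plus strand, 15.3 kb) was covered over its whole length by a site of 22695 bp. This site began 5.23 kb upstream of the gene, held all 4 annotated starts, and ended 2.13 kb past the gene. Sites continued on the downstream side, where 70.2% of the 50 kb was covered, against 15.8% on the upstream side. The most upstream site of the series began 8.72 kb before Tal1, and the remaining 41.3 kb of the upstream flank, toward Stil, were free of sites. Stil, a centrosome gene, had no site at a start. Downstream, a site of 13551 bp covered the whole body of Pdzk1ip1, which encodes a membrane protein. With sites closer than 5 kb joined, Tal1 lay in a domain of 53.8 kb made of 15 sites that were 89.5% of its length.

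Lmo2 (chr2:103957986-103981878, plus strand, 23.9 kb) had the highest covered share of a locus among the 10 genes, at 68.0%, which was above 98.8% of all protein-coding genes. Its distal start lay inside a site of 19655 bp that reached 13.9 kb upstream. Its proximal starts, 11.5 to 13.2 kb further on, lay inside a second site of 13462 bp that stopped 0.21 kb short of the end of the gene. The distal start was CpG-poor, with an observed to expected CpG ratio of 0.165, and the main proximal start CpG-rich, with 0.905. Both flanks were also marked, by 67.8% upstream and 55.2% downstream. The longest stretch without a site, 7.40 kb, began 51.2 kb from the 5′ end. It held the longest match of the locus to sequences outside the assembled chromosomes, of 7.06 kb at 99.0% identity. In all, 21 such sequences matched some part of the locus over at least 1 kb at 99% identity or more. The assembled chromosomes were not searched. The part of repeated sequence in this gap was not tested. 4931422A03Rik overlaps Lmo2 on the opposite strand, so sites inside Lmo2 could belong to either gene. At the far end, its start and that of Fbxo3, an F-box gene, were within 1 kb of a site of 284 bp.

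Lyl1 (chr8:84701457-84704715, plus strand, 3.26 kb) differed from its relative Tal1 throughout. No site overlapped its body or its start, and 0.342% of its locus was covered. The only site of the locus was 353 bp wide and lay 20782 bp upstream. Not more than 1 site in a locus was found for 20.4% of all genes, so this is a common value, and 74.0 kb of the locus downstream of that site were free of sites. Lyl1 lies within the record of Nfix, a nuclear factor gene on the opposite strand. The starts of all 5 neighbouring genes, Ier2, Nacc1, Trmt1, Nfix and G430095P16Rik, were without a site as well. The locus held 10 CpG-rich stretches, and none of them had a site.

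Spi1 (chr2:91082390-91115756, plus strand, 33.4 kb) showed broken coverage. Its widest site near a start, of 3640 bp, ended 951 bp before the 5′ end, so that it just entered the window of 1 kb and covered 2.50% of the window of the first start. An internal protein-coding start, 13.7 kb further on, lay in a site of 576 bp, with another of 496 bp close by. In all, 12 sites overlapped the body and covered 29.3% of it, a value above 86.3% of all genes. The widest of them measured 5369 bp and lay 20.9 to 26.3 kb into the gene, and a site of 10302 bp just past the gene, 34.5 to 44.8 kb from the 5′ end, covered the start of Mybpc3, which encodes a heart muscle protein. Madd, a neighbour on that side, had a site of 405 bp at a start. On the upstream side no site was listed from 5.24 kb to 50 kb before the gene, where the starts of Psmc3, a proteasome gene, Slc39a13, a zinc transporter gene, and Rapsn were free of sites. The outer 17.3 kb of that flank were identical to a patch sequence of the assembly. Reads there can have 2 equal positions if the patch was used in alignment, and this was not tested.

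The RUNX genes, each with a distal and a proximal promoter, had sites between their promoters rather than at them. Runx1 (chr16:92601466-92826149, minus strand, 225 kb) had 50 sites in its body and none within 1 kb of any of its 7 starts, the closest being 3839 bp away. Between the distal start and the last proximal start, 131 kb apart, there were 49 sites that covered 30.2% of the sequence. From the last proximal start to the end of the gene, 94.0 kb, there was 1 site of 200 bp, which made up 0.213%. Along the gene the covered share was 9.27% in the first 20 kb from the distal start, then 18.0%, 30.6%, 25.6% and 41.0% in the next intervals of 20 kb, and 72.5% between 100 kb and 120 kb. The widest site, of 6120 bp, lay in that last interval, and the sites ended there, 9212 bp before the proximal start group, whose first start is 129 kb from the distal one. From 120 kb to 180 kb no site was listed. The longest stretch of the locus without a site was 75.2 kb and began 120 kb from the distal start.

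**Figure D2:**
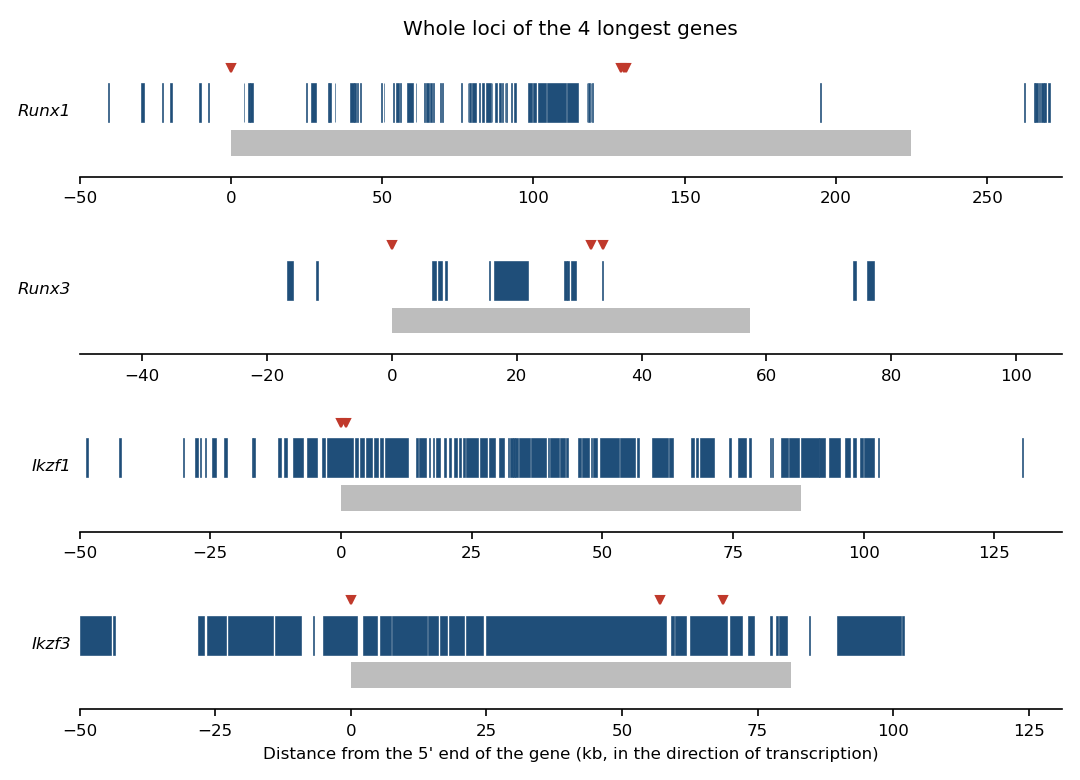
Sites (dark bars) over the whole loci of Runx1, Runx3, Ikzf1 and Ikzf3, by distance from the 5′ end (horizontal axes, kb in the direction of transcription, a different scale for each gene), with the body as a grey bar and groups of start sites as red triangles. In Runx1 the sites stop before the proximal starts near 129 kb, in Runx3 those in the body lie between the promoters except for the 1 of 200 bp, and in Ikzf1 and Ikzf3 they run through the body.

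Runx3 (chr4:135120652-135177990, plus strand, 57.3 kb) resembled Runx1 in this respect. Between the distal and the proximal start, 31.8 kb apart, 8 sites covered 27.04% of the sequence, and the widest measured 5371 bp. The first of these sites lay 6505 bp from the distal start and the last 2275 bp before the proximal start. The 25.5 kb from the proximal start to the end of the gene held 1 site of 200 bp, or 0.784%. It was this site that placed Runx3 among the 8 genes. It covered the start of 1 transcript and lay within 1 kb of that of another, and neither of these is annotated as protein-coding. Its sequence (chr4:135154327-135154526, plus strand, GRCm38.p6) is shown for its small width, with its 5 CpGs in capitals.
Runx3 site: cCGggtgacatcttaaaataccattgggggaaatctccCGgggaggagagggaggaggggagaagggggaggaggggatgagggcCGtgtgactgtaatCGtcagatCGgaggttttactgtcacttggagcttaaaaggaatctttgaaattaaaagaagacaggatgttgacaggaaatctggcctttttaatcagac

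These stretches were compared after their values had been seen. The same stretches gave another picture in the other 2 genes with protein-coding starts at least 10 kb apart. In Lmo2, 92.4% was covered between the distal and proximal starts and 98.2% beyond them. In Spi1 the shares were 28.8% and 29.8%, but their order depended on how narrow sites and gaps were treated. They were 98.1% and 31.4% with sites closer than 5 kb joined, and 7.57% and 28.3% with only sites of at least 1 kb. The whole Runx3 locus matched a sequence of the strain NOD/MrkTac at 99.8% identity. Whether that sequence was used in alignment is not given in the sources used here, and its part in the Runx3 values was not tested. A site of 200 bp is the narrowest in the list and 12.6% of all sites had this width.

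The Ikaros genes, both long, were marked through their bodies in different ways. In Ikzf1 (chr11:11685003-11772926, plus strand, 87.9 kb) all starts lay within a site of 4940 bp, which reached from 2.60 kb before to 2.33 kb after the 5′ end. This was the widest of the 74 sites in the locus. The body was overlapped by 50 sites and covered to 61.8%. The share was 69.3% in the first 20 kb, 72.2% and 65.9% in the next intervals of 20 kb, and 46.4% and 45.4% in the last parts. Gaps were short. Of the 73 gaps between neighbouring sites, 56 were under 1 kb, and with gaps under 5 kb joined 71 of the 74 sites formed 1 domain of 133 kb. Downstream it ended 103 kb from the 5′ end. Its last site, of 222 bp, lay inside the 3′ part of Fignl1, a gene of DNA repair with no site at a start. Ddc, the aromatic amino acid decarboxylase gene, had a site of 233 bp.

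Ikzf3 (chr11:98464902-98546031, minus strand, 81.1 kb) held the widest site of all the loci, of 33102 bp. It lay inside the gene, from 25.0 to 58.1 kb past the 5′ end, and covered the start of a processed transcript. The 5′ end itself lay in a site of 6327 bp, which reached 5.11 kb upstream to the start of Zpbp2, a sperm protein gene in the opposite orientation. Of the 24 neighbouring genes of all loci, Zpbp2 was the only one with a site at a start that also overlapped the body or a start window of the member beside it. In all, 85.3% of the body, 58.4% of the upstream flank and 24.7% of the downstream flank were covered. On the downstream side a site of 11761 bp covered Grb7, an adaptor protein gene, whole, and the next genes Erbb2 and Mien1 had no site at a start. Ormdl3, upstream, had none either.

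The repressor genes Gfi1 and Gfi1b each lay in 1 wide site. For Gfi1 (chr5:107716657-107726036, minus strand, 9.38 kb) it measured 16386 bp, ran from 3.22 kb before the gene to 3.78 kb past it and held all starts. The downstream flank was covered to 63.7% by a dense series of sites, the upstream flank to 14.8%. No other protein-coding gene had a start in this locus. For Gfi1b (chr2:28609450-28621982, minus strand, 12.5 kb) the site measured 15546 bp, ran from 6.68 kb before the 5′ end and stopped 3.67 kb before the end of the gene, so that, with 1 more site of 345 bp, 73.5% of the body was covered. Its flanks were covered to 29.6% upstream and 19.9% downstream. Upstream, sites ended 16.6 kb from the gene, and Tsc1, a tumour suppressor gene whose start is 19.3 kb from that of Gfi1b, had no site there. Downstream, Gtf3c5, which encodes a subunit of a general transcription factor, had none, and Cel, the pancreatic carboxyl ester lipase gene, had a site of 771 bp.

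**Figure D3:**
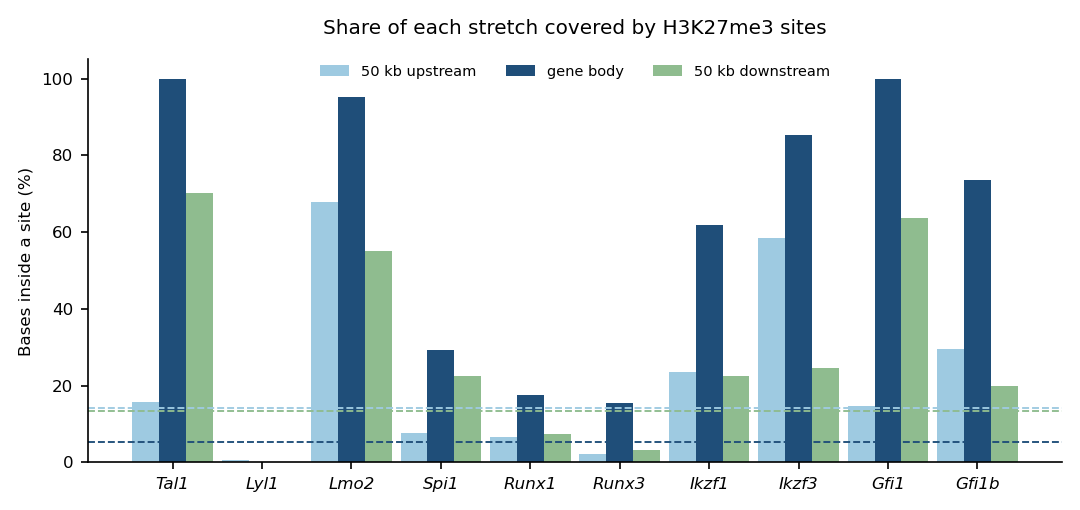
Share of bases inside a site (vertical axis, %) in the 50 kb upstream, the body and the 50 kb downstream of each gene. Dashed lines give the upper quartile over all protein-coding genes, which was 14.3% upstream, 5.40% for the body and 13.4% downstream. In each gene except Lyl1, the body was covered to a higher share than the upstream flank.

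Ordered by the width of the site at a start, the genes ran from Ikzf3 (33102 bp) over Tal1 (22695 bp), Lmo2 (19655 bp), Gfi1 (16386 bp), Gfi1b (15546 bp), Ikzf1 (4940 bp), Spi1 (3640 bp) and Runx3 (200 bp) to Runx1 and Lyl1 with none. Ikzf3 owes its place to the internal start, and its 5′ end would stand between Gfi1b and Ikzf1. Without replicates, it could not be tested whether neighbours in this order differ. By the covered share of the body, Tal1 and Gfi1 came first, both with 100%, then Lmo2 (95.3%), Ikzf3 (85.3%), Gfi1b (73.5%), Ikzf1 (61.8%), Spi1 (29.3%), Runx1 (17.6%), Runx3 (15.4%) and Lyl1 (0%).

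The 45 start sites of the 10 genes formed 27 groups when starts closer than 500 bp were put together, and 21 groups had a site within 1 kb. CpG-rich groups were those with GC of at least 50% and an observed to expected CpG ratio of at least 0.6 over the surrounding sequence, 500 bp each way. Sites were found at 8 of 10 CpG-rich groups and at 13 of 17 others. Over all protein-coding genes, classed by the 5′ end, 25.5% of CpG-rich and 36.3% of other genes had a site. The 2 CpG-rich groups without a site both belonged to Runx1. The site at the CpG-rich group of Runx3 was the one of 200 bp, and the other 7, in Tal1, Ikzf1, Ikzf3, Lmo2 and Gfi1, were at least 2 kb wide. CpG-rich stretches of the whole loci, found in windows of 500 bp, numbered 46, of which 13 overlapped a site. In Tal1 all 4 did, and in Gfi1 3 of 4, but in Runx1 0 of 5, in Runx3 0 of 7, in Gfi1b 0 of 2 and in Lyl1 0 of 10. Between these were Ikzf1 with 2 of 3, Ikzf3 with 2 of 5, and Spi1 and Lmo2 with 1 of 3 each. The share over such stretches of the whole genome was not computed.

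**Figure D4:**
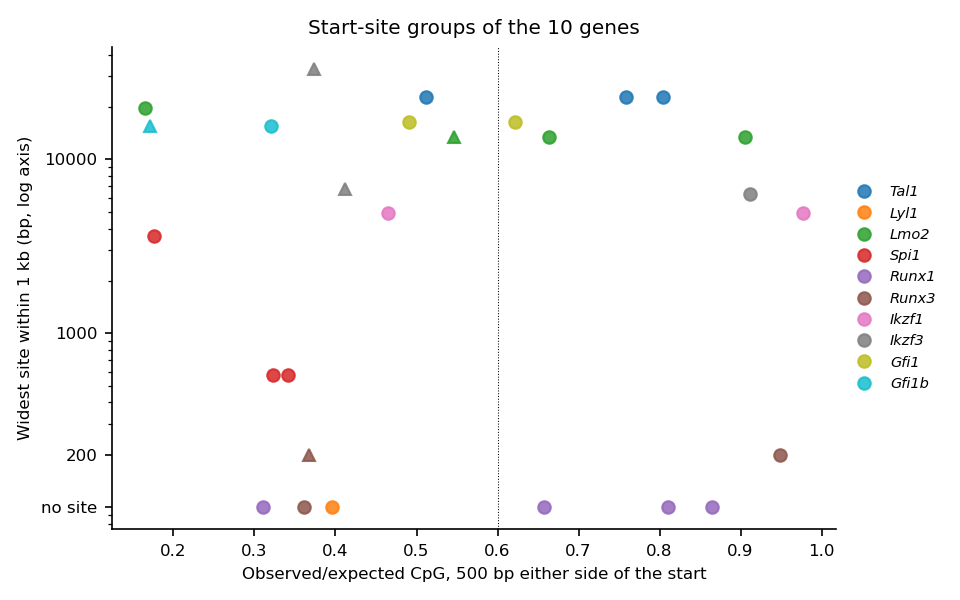
Each point is a group of start sites of 1 gene (colour), with circles for groups that include a protein-coding transcript and triangles for the others. The horizontal axis gives the observed to expected CpG ratio in the 500 bp either side of the start, with a dotted line at 0.6, and the vertical axis the widest site within 1 kb in bp on a log scale, with groups without a site at the bottom. Wide sites occur on both sides of the line, and the groups of Runx1, at ratios from 0.31 to 0.865, have none.

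Promoters were searched for short words on both strands. GATA words (AGATAA or TGATAA) were found in 2 of the 12 member promoters, the first of Tal1 and that of Gfi1b, against 18.6% of all promoters. The RUNX word TGTGGT was found in 2, the distal promoters of Runx1 and Runx3, each with 2 copies, against 16.8%. E-boxes (CAGCTG or CAGATG) were found in 1, the first of Tal1, against 30.6%, and the ETS word GGAAGT in 0, against 23.8%. The GFI1 word AAATCA occurred in 2, those of Gfi1b and the second of Ikzf1, against 14.0%, and the GC box GGGCGG in 4, against 35.7%. The GATA, RUNX, GFI1 and GC box counts were close to the shares over all promoters. The E-box and ETS counts were lower, but they rest on 12 promoters and the difference was not tested. A match is a string of letters and not a bound site.

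The 287 sites of the loci had a median width of 647 bp, against 455 bp over all 153983 sites, and 9 of them, or 3.14%, were at least 10 kb wide, against 0.944%. The 13 sites at or within 1 kb of a start of the 10 genes had a median width of 6761 bp. A wider site is more likely to reach a start, and the width of such sites over all genes was not computed. The value is therefore not comparable with the other medians. The GC content and the share of bases marked as repeats were near those of all sites on the assembled chromosomes, with medians of 47.2% against 47.9% and 13.5% against 13.6%. Of the 141 sites centred in a member body, 134 were centred in an intron and 7 in an exon. The share of the bodies that is intron was not computed, so this split cannot be read as a preference. The body of Ikzf1 held 46 of the intron-centred sites and that of Runx1 50.

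There were 24 protein-coding neighbours with a start in the loci. A site lay at a start of 9 of them, close to the 31.5% of all protein-coding genes, and a site of at least 2 kb at 4, close to 16.1%, namely Pdzk1ip1, Mybpc3, Grb7 and Zpbp2. The remaining 15 had none. By promoter class, 2 of 13 CpG-rich neighbours and 7 of 11 others had a site, against 25.5% and 36.3% of all genes of each class, and this difference was not tested.

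The same counts were made for lists of genes around these factors. Of 15 family relatives, 8 had a site at a start and 3 a site of at least 2 kb, none as wide as 5 kb, and their median body cover was 1.48%. Of 14 partners and corepressors, 2 had a site, both of at least 2 kb. Cbfa2t3, a corepressor of the ETO family that joins the Tal1 complex, lay under a site of 29072 bp with 91.0% of its body covered. Of 28 other blood transcription factors, 23 had a site and 15 one of at least 2 kb. The widest were those of Irf8 (71376 bp), a factor of macrophages and dendritic cells, Pax5 (21976 bp), the B cell identity factor, and Bcl11b (11281 bp), a T cell factor. Bcl11a, Irf4, Tbx21, Cebpa, Eomes and Hlf had sites between 5362 bp and 8715 bp. Of 27 blood cell effector and surface genes found in the annotation, out of 28 listed, 18 had a site and 11 one of at least 2 kb. Genes with a site of at least 5 kb included Cd3e (18462 bp) and Cd4 (17293 bp), which encode T cell surface proteins, Kit (11459 bp), the stem cell factor receptor gene, and Csf3r, Coro1a, Mpo, Hba-a1 and Epor.

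Sites of at least 2 kb were also found at regulators of other lineages, namely at 7 of 14 muscle and mesoderm bHLH factors, among them Tcf15 (27865 bp), Myod1 (14344 bp), Hand2, Mesp1 and Msc, and at 12 of 14 gut, liver and pancreas factors, among them Cdx2 (26548 bp), Mnx1 (26433 bp), Onecut1, Ptf1a, Foxa2 and Pdx1. Of 12 fibroblast markers, 4 had a site at a start and none was wider than 437 bp, with a median body cover of 0. Of 7 blood markers, 4 had a site, 3 of at least 2 kb. Such counts do not measure expression and are no check of cell identity.

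**Figure D5:**
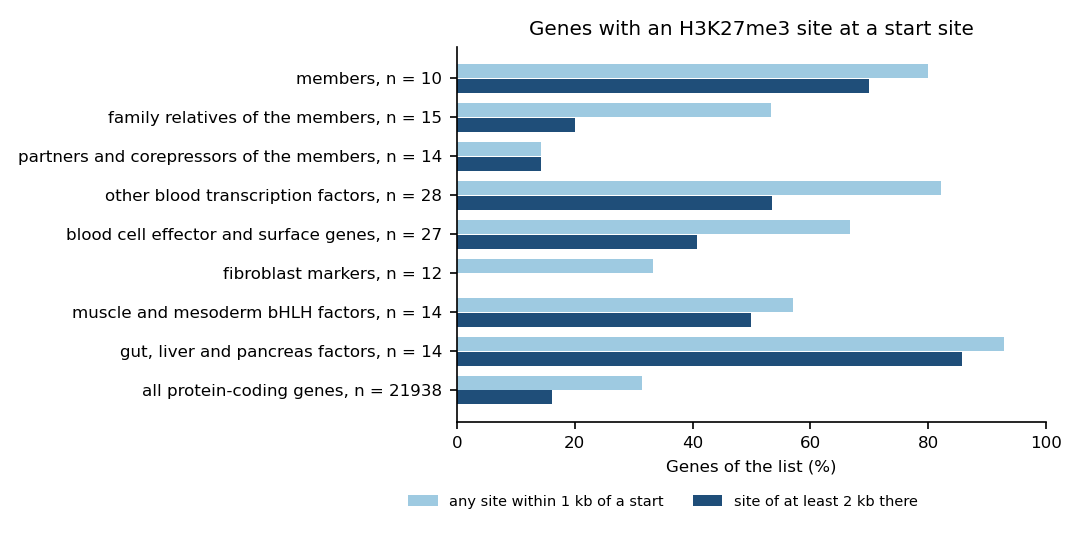
Share of genes of each list (horizontal axis, %) with any site within 1 kb of a start (light bars) or with a site of at least 2 kb there (dark bars), with the number of genes found beside each list. The 10 members reach 80% and 70%, the other blood transcription factors 82.1% and 53.6%, fibroblast markers 33.3% and 0%, and all protein-coding genes 31.5% and 16.1%.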

How the data were processed

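Chromatin of iMEF cells was immunoprecipitated for H3K27me3. Per the study's methods the authors used Trim Galore for trimming, BWA for alignment to mm10 and SAMtools for filtering. They merged replicates with Picard, scaled libraries to the lowest coverage, called broad peaks with MACS2 and combined the peaks of all samples. Versions, threshold and merging rule are not given in the sources used here. The deposited list holds chromosome, start and end. It has 0 columns of values per library, so no test, interval or depth could be given. Starts were read as counted from 0, because the narrowest site was 200 bp, and are printed counted from 1. The list was compared with GRCm38.p6 and GENCODE M21, and 0 sites passed a chromosome end.

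Covered shares are percent of bases inside a site. Percentiles, medians and shares over all genes used the 21938 protein-coding genes. Loci were aligned to patch and alternate sequences with minimap2 2.31 (at least 1 kb at 99% identity). Scripts used Python 3.11.15, pandas 2.3.3, numpy 2.4.6 and matplotlib 3.10.9. Interval functions were tested on 200 simulated lists with 0 mismatches. The genes and lists were chosen with earlier results of these data known. Named were all members, neighbours with a start in the flanks, and list genes with a site of at least 5 kb at a start, of which 1 is not reported here. Alternatives joined sites, set minimum widths, and changed windows and flanks.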

Additional observations from a re-analysis of the deposited data

How the results depend on the processing

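The count of 8 genes with a site at a start stayed between 7 and 8 when sites were joined, narrow sites were left out, the window was 500 bp or 2 kb, or starts were limited to protein-coding transcripts or the 5′ end, and Runx3 was the gene lost in each case. It was 3 when the centre of the site had to lie in the window, since wide sites are centred elsewhere. The 287 sites became 94 with gaps under 1 kb joined, 37 with gaps under 5 kb joined, 177 with sites of at least 500 bp and 107 with sites of at least 1 kb. The median covered share of the loci was 58.0% with 20 kb of flank and 20.7% with 100 kb. The 9 neighbours with a site fell to 5 with sites of at least 500 bp and 4 with sites of at least 1 kb. The alternatives for neighbours, stretches and start groups were added after seeing the data. Of 172 alternative values for single genes and stretches, 132 stayed within 1.5 times the reported value, 25 moved lower and 15 higher. The covered shares between the Runx1 promoters ranged from 18.4% to 61.8%, and those beyond the proximal start from 0 to 0.213%. For Runx3 the ranges were 16.9% to 40.4% and 0 to 7.97%. No paired analysis was possible because no library has values of its own here, and no library could be left out.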
